A study of Mus musculus with 32 samples.

Results

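The comparison set the 3AB macrophage line against the 3ABY721 line, both kept continuously in CSF-1. Its members were the arrays whose titles name these lines with the label CONST, 2 per line, which is 4 of the 32 arrays of the series. The 3AB line carries a CSF-1 receptor that lacks Tyr-721, and the 3ABY721 line carries one that has this tyrosine and phosphorylates it, per the series' design text. Both lines received 120 ng/mL human recombinant CSF-1. Cultures used for reference were 3AB and 3ABY721 cells starved of CSF-1 overnight (labelled UR), and the Y721F line, whose receptor lacks Tyr-721, beside the WT line, whose receptor has it, both grown in CSF-1. All line names begin with M-/- in the labels. The sources used here do not spell out M-/- or 3AB, or say whether a line is 1 clone. Each receptor comes in its own line, so an effect of the receptor and any other difference between the lines cannot be told apart.

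CSF-1 is the growth factor that keeps macrophages alive and dividing, and its receptor, encoded by Csf1r, is a tyrosine kinase that phosphorylates its own cytoplasmic tyrosines after binding CSF-1. Tyr-721 is known as the docking site for the regulatory subunit of phosphatidylinositol 3-kinase (PI3K), whose lipid product recruits AKT. Other receptor tyrosines feed the ERK pathway, which drives immediate early genes. The comparison asks how macrophages growing in CSF-1 differ when the receptor lacks or keeps this tyrosine, in this pair of lines.

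The platform was the Affymetrix Mouse Gene 1.0 ST array, hybridised with total RNA, and the deposited values are log2 signals, so a difference of 1 is a fold of 2. Precision is limited by how few arrays there are. Across 19938 genes, arrays I and II correlated at Pearson r = 0.996 in 3AB and 0.995 in 3ABY721, against 0.989 to 0.99 between arrays of the different lines. Within a line the median absolute difference between array I and array II was 0.11 in 3AB and 0.13 in 3ABY721. Medians of the 16 arrays of the steady-state experiment lay between 6.45 and 6.66. The arrays are called biological replicates in the design text. Nothing says that they came from separate cultures, so the p-values measure the spread between these arrays.

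Csf1r read 13.04 and 13.07 in 3AB and 13.08 and 13.16 in 3ABY721. The difference was -0.07 (SE 0.12, adjusted p = 0.891 by limma with Benjamini-Hochberg adjustment over 19938 genes), which did not pass the test. A probe set does not read the changed codon, so this value checks the amount of receptor RNA and not the labels. The macrophage identity list averaged 10.65 and 10.69 in the 3AB arrays and 10.28 and 10.30 in the 3ABY721 arrays. Of its 16 measured members 3 were higher in 3AB (Aif1, Mertk and Fcgr1) and 0 lower, with 12 of 16 differences above 0 and a median of 0.27, and 1 was called without any 1 of the 4 arrays. Cd68, Adgre1 (F4/80) and Lyz2 did not pass the test. With only the 4 arrays fitted 3 members of the identity list were higher and 1 lower. The part of this difference in level in the results below was not tested. The defining genes of fibroblasts, dendritic cells, osteoclasts, granulocytes and mast cells, and lymphocytes gave 0 called genes in all 5 lists, beside 1.18% of all genes. Osteoclast markers differed by -2.18 (Atp6v0d2, not called) to 0.77. With only the 4 arrays fitted the dendritic cell and fibroblast lists had 1 lower gene each. The osteoclast list then had 1 higher and 1 lower, and the lymphocyte list 1 higher. Mean levels of the 5 lists ran between 4.86 and 7.76 in 3AB and between 4.88 and 8.0 in 3ABY721, over lists and arrays. The values carry no detection call, so absence of these markers was not tested.

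Called genes have an adjusted p below 0.05 together with a fold over 1.5. Verbs such as rose and fell, and the words higher and lower, refer to called genes. Grown in CSF-1, 236 genes differed between 3AB and 3ABY721, which is 1.18% of the 19938 genes tested. Of these, 108 were higher in 3AB (0.542%) and 128 were lower (0.642%). The fold exceeded 2 for 69 of the higher and 85 of the lower genes, and exceeded 4 for 14 and 18 of them. The largest folds were 11.1 for a higher gene and 8.6 for a lower one. Over all genes the median difference was -0.01 and the median absolute difference 0.14. For all 236 genes both 3AB arrays lay on the same side of both 3ABY721 arrays, which also held for 52.2% of all genes. The count without array I of 3AB was 74, without array II of 3AB 83, without array I of 3ABY721 92 and without array II of 3ABY721 75. Of the 85 called genes named in the text, 35 kept their call whichever of these 4 arrays was left out. They were Ms4a6b, Ms4a7, Ms4a4a, Ms4a4c, Ms4a6c, Ms4a6d, Cxcr4, Kcnj10, Tlr1, Clec1b, Clec7a, C4b, Mertk, Tgfbr1, AW112010, Il21r, Aoah and Selenop among the higher genes, and Plod2, Clec4n, Clec5a, Tuba8, Aqp8, Dusp4, Fam78b, Tm4sf1, Layn, Cd80, Tiam1, Odc1, Glipr2, Clu, Car2, Car4 and Ehd2 among the lower ones. Each of the others lost its call without at least 1 of the arrays, with its direction kept.

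The MS4A family of membrane-spanning proteins, which are expressed on leukocytes and act beside immune receptors, held the 2 largest rises. Ms4a6b read 9.81 and 9.46 in 3AB, against 6.23 and 6.10 in 3ABY721. The difference was 3.47 (SE 0.21, adjusted p = 1.54e-06, fold 11.1). Both 3AB arrays lay far above both 3ABY721 arrays, and the spread within a line was a small part of the gap. Ms4a7, a macrophage member of the family, read 8.21 and 8.46 in 3AB and 4.98 and 4.82 in 3ABY721, a difference of 3.44 (SE 0.22, adjusted p = 1.54e-06). The ranges again did not meet, which held for all 236 called genes and for 52.2% of all genes. Ms4a4a read 7.99 and 8.09 in 3AB, against 5.44 and 5.54 in 3ABY721. Ms4a4c read 9.23 and 8.86 in 3AB, against 6.83 and 6.40 in 3ABY721. Ms4a6c read 10.91 and 10.71 in 3AB, against 9.05 and 8.46 in 3ABY721. These 3 members rose by 2.55, 2.43 and 2.05, and a further member, Ms4a6d, rose by 1.24. In all, 6 of the 12 measured members were higher in 3AB and 0 were lower, with a median difference of 0.95 over the 12, against -0.01 over all genes. The 6 that were not called were Ms4a1, Ms4a2, Ms4a3, Ms4a4b, Ms4a4d and Ms4a8a, with differences between -0.06 and 0.66. The Ms4a4 and Ms4a6 genes are close paralogs, and cross-hybridisation between their probes was not tested.

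**Figure D1:**
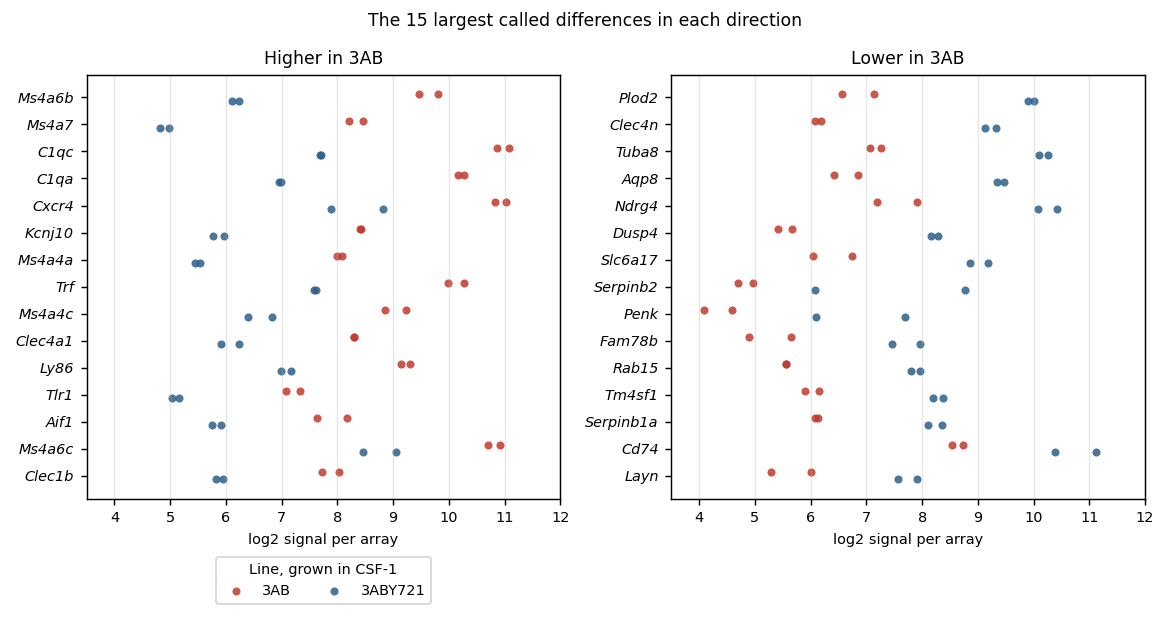
The log2 signal of each array (points) is plotted for the 15 genes with the largest called rise in 3AB (left) and the 15 with the largest called fall (right), 2 arrays per line grown in CSF-1. The arrays of the lines stand apart for each gene, from Ms4a6b (9.81 and 9.46 in 3AB, 6.23 and 6.10 in 3ABY721) to Layn (5.28 and 6.0 in 3AB, 7.90 and 7.56 in 3ABY721), and Serpinb2 has its 3ABY721 arrays at 8.76 and 6.08. Arrays of the lines also stand apart for 52.2% of all genes.

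Complement genes followed. C1qa, C1qb and C1qc encode the chains of C1q, the recognition molecule of the classical pathway, which macrophages are a main source of. C1qc read 10.86 and 11.08 in 3AB and 7.69 and 7.70 in 3ABY721, a difference of 3.27 (SE 0.72, adjusted p = 0.0394). C1qa read 10.16 and 10.27 in 3AB and 6.96 and 6.98 in 3ABY721, a difference of 3.25 (SE 0.60, adjusted p = 0.0136). In both genes the arrays of a line were close together and the lines far apart. C1qb, chosen after its values were seen, read 11.02 and 11.13 in 3AB and 8.20 and 8.02 in 3ABY721, and its difference of 2.96 (SE 0.69, adjusted p = 0.0562) did not pass. The standard error is shared by the 8 groups of the fit, and C1qa varied most in the grown WT line, whose arrays read 9.04 and 6.55. With the 4 arrays fitted alone the standard errors of C1qa, C1qb and C1qc were 0.10, 0.11 and 0.11, and all 3 genes passed at an adjusted p of 0.000341. C1qa and C1qc lost their calls when any 1 of the 4 arrays was left out of the fit with 8 groups, with adjusted p up to 0.128 for C1qa and 0.278 for C1qc over all settings. Factor B of the alternative pathway (Cfb) rose by 1.85 (SE 0.32, adjusted p = 0.00908) and C4b, the fourth complement component, by 1.78 (SE 0.18, adjusted p = 9.88e-05). C1ra, a protease of the C1 complex, and Cd93, a receptor of the same cells, were chosen after their values were seen and rose by 1.19 and 0.99. The list held 6 higher and 0 lower genes among 16 measured (7 and 1 with only the 4 arrays fitted), with a median difference of 0.21. With any 1 of the 4 arrays left out 1 or 2 of them were called, and with all 32 arrays in the fit 2. The receptors C3ar1, C5ar1 and C5ar2 were not called.

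C-type lectin receptors, which bind carbohydrates and other ligands on microbes and cells, changed in both directions. Of 19 measured members, 5 were higher in 3AB and 2 were lower, with a median difference of 0.19. The higher ones were 2 without array II of either line, 3 without array I of 3AB and 5 without array I of 3ABY721. Clec4n, which encodes Dectin-2, a receptor for fungal mannans, read 6.18 and 6.07 in 3AB and 9.32 and 9.13 in 3ABY721. Its difference of -3.10 (SE 0.32, adjusted p = 0.000137) was among the largest falls, and the lines were separated by more than 2 log2 units. Clec5a (MDL-1), which signals through the adaptor DAP12, read 9.39 and 9.31 in 3AB and 10.94 and 10.78 in 3ABY721 and fell by 1.51 (SE 0.22, adjusted p = 0.00257). Clec7a, which encodes the beta-glucan receptor Dectin-1, read 9.79 on both 3AB arrays, against 8.13 and 7.97 in 3ABY721, and rose by 1.74 (SE 0.19, adjusted p = 0.000233). Clec1b (CLEC-2), a receptor for podoplanin, read 7.72 and 8.02 in 3AB and 5.94 and 5.82 in 3ABY721, a rise of 1.99 (SE 0.19, adjusted p = 6.96e-05). The 2 fungal receptors thus lay on opposite sides of the comparison. Clec4a1, of the DCIR group, rose by 2.22 (SE 0.36, adjusted p = 0.00566), and its relatives Clec4a3 and Clec4b1 by 1.27 and 1.50. Clec4a3, Clec4b1 and Clec5a were chosen after their values were seen, as was Clec4g, a lectin outside the list, which fell by 0.66.

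**Figure D2:**
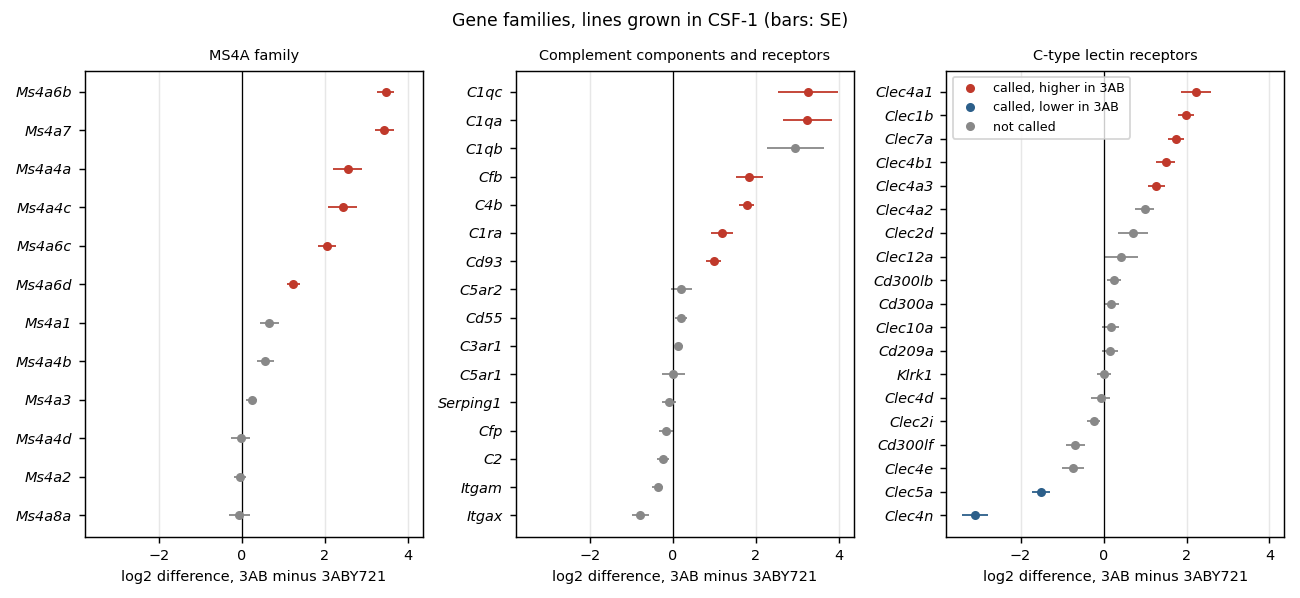
Log2 differences, 3AB minus 3ABY721 grown in CSF-1, are plotted for every measured member of the MS4A family (12 genes), the complement list (16) and the C-type lectin receptors (19), with bars for the SE and colour for called genes. All 6 called MS4A genes and all 6 called complement genes lie to the right of 0, while the lectins run from Clec4n at -3.10 to Clec4a1 at 2.22.

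Several of these genes are neighbours. In the gene order of the RefSeq annotation of GRCm38.p6, called genes were joined where no more than 10 measured genes apart. On chromosome 19 the 6 MS4A genes and AW112010 lay within a stretch of 16 measured genes, and all 7 were higher in 3AB. On chromosome 1 the SLAM family genes Ly9, Slamf7 and Cd48, receptors of leukocyte contacts, were 3 measured genes in a row, and rose by 0.60, 1.68 and 0.99. On chromosome 6 Clec4a1, Clec4a3, Clec4b1 and Clec4n lay within 7 measured genes, where the first 3 were higher in 3AB and Clec4n lower. Stretches on chromosomes 5 and 9 were mixed too. That with Tlr1 on chromosome 5 held 1 higher and 2 lower genes among 18 measured. That with Ctsh and Plod2 on chromosome 9 held 2 higher and 1 lower among 13. How often called genes would be joined by chance was not tested. Ly9, Slamf7, Cd48 and AW112010 were chosen after their values were seen.

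Uptake receptors were among the higher genes. Mertk, a receptor tyrosine kinase for the engulfment of apoptotic cells, read 8.65 and 8.44 in 3AB and 7.04 and 7.23 in 3ABY721, a difference of 1.41 (SE 0.17, adjusted p = 0.000479). The scavenger receptor Stab1 rose by 1.32 (SE 0.25, adjusted p = 0.0157), the mannose receptor Mrc1 by 1.28 (SE 0.23, adjusted p = 0.0119) and the integrin subunit Itgb5, part of a receptor used in apoptotic cell uptake, by 1.37 (SE 0.31, adjusted p = 0.0427). The list gave 4 higher and 0 lower genes among 24 measured, with a median difference of 0.12, and 1 higher gene without any 1 of the 4 arrays or with all 32 in the fit. Stab1, Mrc1 and Itgb5 lost their calls when any 1 of the 4 arrays was left out, with an adjusted p of up to 0.172, 0.626 and 0.318 over all settings, while Mertk kept its call. With only the 4 arrays fitted 4 of the 24 uptake genes were higher and 2 lower. The other integrin that rose in the fit with 8 groups was Itga4, a subunit of VLA-4, by 1.51 (SE 0.24, adjusted p = 0.00427). The adhesion gene Cdh1 (E-cadherin) fell by 0.82 (SE 0.19, adjusted p = 0.0443).

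Receptors for microbial products and for chemoattractants gave single large changes. Tlr1, which pairs with TLR2 in the recognition of lipopeptides, read 7.33 and 7.07 in 3AB and 5.03 and 5.16 in 3ABY721, a difference of 2.11 (SE 0.22, adjusted p = 0.000163). Ly86 (MD-1), the partner of the Toll-like protein RP105, rose by 2.14 (SE 0.41, adjusted p = 0.0153). They were the only called genes of 18 measured in the Toll-like receptor list, whose median was 0.21. Cxcr4, the receptor for CXCL12, read 10.82 and 11.02 in 3AB and 8.82 and 7.89 in 3ABY721, a difference of 2.56 (SE 0.35, adjusted p = 0.0014). Its 3ABY721 arrays differed by almost 1 log2 unit, and both still lay below both 3AB arrays. Ccr2, the receptor for CCL2, rose by 1.11 (SE 0.22, adjusted p = 0.0177). Of 15 chemoattractant receptors these 2 were higher and 0 lower in the fit with 8 groups. With only the 4 arrays fitted 3 were higher and 2 lower. Fcgr1, the high-affinity IgG receptor, rose by 0.90 (SE 0.21, adjusted p = 0.0493), the only called gene of 8 Fc receptors. Cybb, the catalytic subunit of the phagocyte NADPH oxidase, read 11.97 and 11.79 in 3AB and 10.35 and 10.37 in 3ABY721, a difference of 1.52 (SE 0.34, adjusted p = 0.0427). It was the only called gene of 15 measured in the list of NADPH oxidase and antimicrobial genes. That list had a median of -0.08, with 6 of 15 differences above 0 and the lowest at -1.30. Ccr2, Fcgr1 and Cybb lost their calls when any 1 of the 4 arrays was left out, with adjusted p up to 0.243, 0.562 and 0.321 over all settings.

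Other rises among the 15 largest were Kcnj10, an inwardly rectifying potassium channel, by 2.55 (SE 0.19, adjusted p = 8.32e-06), Trf, which encodes the iron carrier transferrin, by 2.53 (SE 0.39, adjusted p = 0.00368), and Aif1, the actin-binding macrophage marker IBA1, by 2.08 (SE 0.39, adjusted p = 0.015). Trf read 10.27 and 9.99 in 3AB, against 7.58 and 7.61 in 3ABY721. In the growth factor list, the TGF-beta receptor Tgfbr1 read 10.11 and 10.05 in 3AB and 8.55 and 8.50 in 3ABY721. It rose by 1.56 (SE 0.20, adjusted p = 0.00112), and hepatocyte growth factor (Hgf) rose by 1.19 (SE 0.20, adjusted p = 0.00817). These were the 2 called genes of 26 measured, of which only 6 had a difference above 0. The list's median was -0.11 and its lowest difference -1.73. With only the 4 arrays fitted 2 of the list were higher and 5 lower. Smad3, a transcription factor downstream of that receptor, and Il10ra, the ligand-binding chain of the interleukin-10 receptor, were chosen after their values were seen and rose by 0.81 and 0.97. Zeb2, a transcription factor of the macrophage lineage, rose by 0.63 (SE 0.14, adjusted p = 0.0443), the only called gene of 23 lineage transcription factors.

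The largest falls came from genes of several kinds. Plod2, a lysyl hydroxylase that modifies collagen, read 7.14 and 6.56 in 3AB and 9.90 and 10.01 in 3ABY721, a difference of -3.10 (SE 0.29, adjusted p = 6.96e-05). Tuba8, an alpha-tubulin, fell by 3.01 (SE 0.41, adjusted p = 0.0014), and the water channel Aqp8 read 6.42 and 6.84 in 3AB against 9.35 and 9.47 in 3ABY721 and fell by 2.78 (SE 0.21, adjusted p = 9.6e-06). None of these ranges met, as in all 236 called genes and 52.2% of all genes. Tm4sf1, a tetraspanin-like surface protein, read 5.89 and 6.15 in 3AB and 8.20 and 8.37 in 3ABY721, a difference of -2.26 (SE 0.14, adjusted p = 1.54e-06). Layn, which encodes the hyaluronan receptor layilin, fell by 2.09 (SE 0.25, adjusted p = 0.00049), and Clu, the secreted chaperone clusterin, by 2.01 (SE 0.24, adjusted p = 0.000365). Serpinb2, an inhibitor of urokinase, read 4.97 and 4.70 in 3AB and 8.76 and 6.08 in 3ABY721. Its difference of -2.58 (SE 0.58, adjusted p = 0.0436) moved with array I of 3ABY721, without which it was -1.25 and no longer called. Without array II of 3ABY721 it was -3.92 (adjusted p = 0.000298). The call was also lost without array I or array II of 3AB, with an adjusted p of up to 0.308 over all settings. Penk, which encodes the opioid precursor proenkephalin, also had uneven 3ABY721 arrays at 7.69 and 6.09, against 4.09 and 4.59 in 3AB, and fell by 2.55 (SE 0.48, adjusted p = 0.0157). The rest of the 15 largest falls included Ndrg4 by 2.70, the transporter Slc6a17 by 2.63, the GTPase Rab15 by 2.33 and the protease inhibitor Serpinb1a by 2.12.

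Dusp4, the phosphatase MKP-2 that inactivates ERK and is itself an ERK-induced gene, read 5.42 and 5.67 in 3AB and 8.15 and 8.29 in 3ABY721, a difference of -2.68 (SE 0.24, adjusted p = 6.85e-05). It was the only called gene of the 14 measured in the ERK feedback list, whose median was -0.19. Spry1 and Spry2, feedback inhibitors of receptor tyrosine kinases, gave -0.20 (SE 0.16, adjusted p = 0.705) and -0.17 (SE 0.26, adjusted p = 0.864). Among 26 immediate early genes only Fosl1, which encodes the AP-1 subunit FRA-1, was called. It read 7.0 and 7.06 in 3AB, against 8.33 and 8.49 in 3ABY721, and fell by 1.38 (SE 0.21, adjusted p = 0.00363). The list median was -0.22. Fos, Egr1 and Myc were uneven within the lines: Egr1 read 8.23 and 6.26 in 3AB and 6.81 and 8.26 in 3ABY721, so that the lines overlapped. Fos measured 0.66 (SE 0.58, adjusted p = 0.728), Egr1 -0.29 (SE 0.59, adjusted p = 0.902) and Myc -0.36 (SE 0.45, adjusted p = 0.825). Odc1, the first enzyme of polyamine synthesis, was the only called gene of 23 in the ribosome biogenesis list. It read 10.50 and 10.71 in 3AB, against 12.20 and 12.19 in 3ABY721, and fell by 1.59 (SE 0.22, adjusted p = 0.00179). The 28 genes of G1/S and DNA replication and the 23 of mitosis gave 0 called genes, with medians of 0.03 and 0.15, and cyclin D1 (Ccnd1) differed by -0.33 (SE 0.44, adjusted p = 0.837).

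The genes of PI3K, its lipid phosphatases and AKT were 18 measured, of which 0 were called. Their differences ran from -0.11 (Plcg2) to 0.37 (Pik3r3), with a median of 0.14. Quantile normalization of the arrays brought that median to 0.06. FOXO and starvation-linked genes, which AKT represses, gave 0 called genes of 20, with a median of 0.19. Metabolic and stress lists gave 0 called genes as well: sterol and fatty acid synthesis (21 measured, median 0.10), LXR targets (10, median -0.02), NRF2-linked genes (18, median -0.08) and the integrated stress and unfolded protein response (20, median -0.14).

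In the fit with 8 groups the called genes of the lists of CSF ligands, inflammatory cytokines and chemokines were Csf1, Csf2 and Cxcl3, and all fell. Csf1, which encodes CSF-1 itself, read 6.07 and 5.61 in 3AB and 7.09 and 7.0 in 3ABY721, a difference of -1.21 (SE 0.26, adjusted p = 0.0336). Csf2, which encodes the macrophage growth factor GM-CSF, read 4.42 and 4.81 in 3AB and 5.46 and 5.94 in 3ABY721, a difference of -1.08 (SE 0.18, adjusted p = 0.00733). Csf1 and Csf2 were the 2 called genes of 11 in the CSF receptor and ligand list. Csf2 had a low signal, at percentile 18.8 of the genes by mean signal. It lost its call without array I of 3AB or without array II of 3ABY721. Csf1 lost its call when any 1 of the 4 arrays was left out and after quantile normalization, with adjusted p up to 0.365 over all settings. Cxcl3, a neutrophil attractant, fell by 1.81 (SE 0.36, adjusted p = 0.022) as the only called gene of 25 listed chemokines. It lost its call when any 1 of the 4 arrays was left out. With only the 4 arrays fitted, 1 listed chemokine was higher and 3 were lower. The chemokine Ccl2 measured -0.51 (SE 0.35, adjusted p = 0.636). Cxcl13, a B cell attractant outside the list and chosen after its values were seen, rose by 1.35. Of 19 inflammatory cytokines 0 were higher and Csf2 alone was lower in the fit with 8 groups. After quantile normalization 1 was higher and 1 lower, and with only the 4 arrays fitted 1 was higher and 2 lower. Tnf measured -0.39 (SE 0.30, adjusted p = 0.684), Il6 -0.03 (SE 0.14, adjusted p = 0.967), Il1b 0.05 (SE 0.32, adjusted p = 0.975) and Il12b -0.24 (SE 0.19, adjusted p = 0.702). The anti-inflammatory Il10 read 5.72 and 5.66 in 3AB, against 4.96 and 5.11 in 3ABY721. Its difference of 0.66 (SE 0.15) missed the threshold at an adjusted p of 0.0569, and passed with only the 4 arrays fitted (adjusted p = 0.0305 by limma).

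Markers of macrophage activation were divided. Of 18 measured markers of classical (M1) activation 2 were lower and 0 higher. Cd80, a costimulatory ligand for T cells, read 6.75 and 6.49 in 3AB and 8.83 and 8.52 in 3ABY721, a difference of -2.06 (SE 0.21, adjusted p = 0.000137), while its relative Cd86 measured -0.16 (SE 0.25, adjusted p = 0.866). Ptgs2, which encodes the prostaglandin enzyme COX-2, fell by 1.32 (SE 0.27, adjusted p = 0.0279). Nos2 measured -0.34 (SE 0.33, adjusted p = 0.764). In the fit with 8 groups 2 of 24 markers of alternative (M2) activation were higher, Mrc1 and Stab1, and 0 lower. The list's median of -0.20 had the opposite sign to these 2 members. With only the 4 arrays fitted 3 markers were higher and 2 lower. Without any 1 of the 4 arrays, or with all 32 in the fit, 0 M2 markers were called. Arg1, the arginase of M2 cells, read 8.63 and 6.46 in 3AB and 8.72 and 6.86 in 3ABY721, so that its arrays within a line were further apart than the lines. Cd163 measured 0.08 (SE 0.19, adjusted p = 0.928). Cd74, the invariant chain of MHC class II, read 8.54 and 8.74 in 3AB and 11.12 and 10.39 in 3ABY721, a difference of -2.12 (SE 0.37, adjusted p = 0.00925), the only called gene of 11 in antigen presentation by class II. Traf1, an NF-kappaB target and adaptor, fell by 1.30 (SE 0.20, adjusted p = 0.00368), the only called gene of 17 in its list. The 25 type I interferon response genes gave 0 called genes, with a median of 0.15. In RNA of whole cultures, fewer cells that express a gene and less RNA per cell cannot be told apart.

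Genes of glycolysis and hypoxia had the lowest median of the 45 lists, at -0.44, with 0 of 18 called and 2 of 18 differences above 0. Slc2a1, the glucose transporter GLUT1, read 11.47 and 10.87 in 3AB and 12.19 and 12.32 in 3ABY721 (difference -1.09, SE 0.29, adjusted p = 0.115). Egln3, an oxygen-sensing prolyl hydroxylase, measured -1.76 (SE 0.53, adjusted p = 0.178). Plod2, described above, is a known hypoxia-induced gene outside the list, and P4ha2, a collagen prolyl hydroxylase that is another, fell by 1.42 (SE 0.32, adjusted p = 0.0426) but lost its call when any 1 of the 4 arrays was left out. Slc2a1, Egln3 and P4ha2 were chosen after their values were seen.

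The series is titled for microRNA-21, whose seed pairs with sites in its target RNAs. The mature mouse sequence in RefSeq is shown with its seed (bases 2 to 8) in capitals, as background to the list counted below, which was taken from reported targets. No seed match was searched.
mmu-miR-21a-5p: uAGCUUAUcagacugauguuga
The microRNA itself was not analysed here. Of 23 measured genes reported as its targets, 1 was lower and 0 higher, with a median difference of -0.02. The called gene was Tiam1, an activator of the GTPase RAC, which read 6.03 and 6.37 in 3AB and 8.11 and 7.76 in 3ABY721, a difference of -1.73 (SE 0.20, adjusted p = 0.000273). Pdcd4, a widely used reporter of this microRNA, measured 0.24 (SE 0.26, adjusted p = 0.792).

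**Figure D3:**
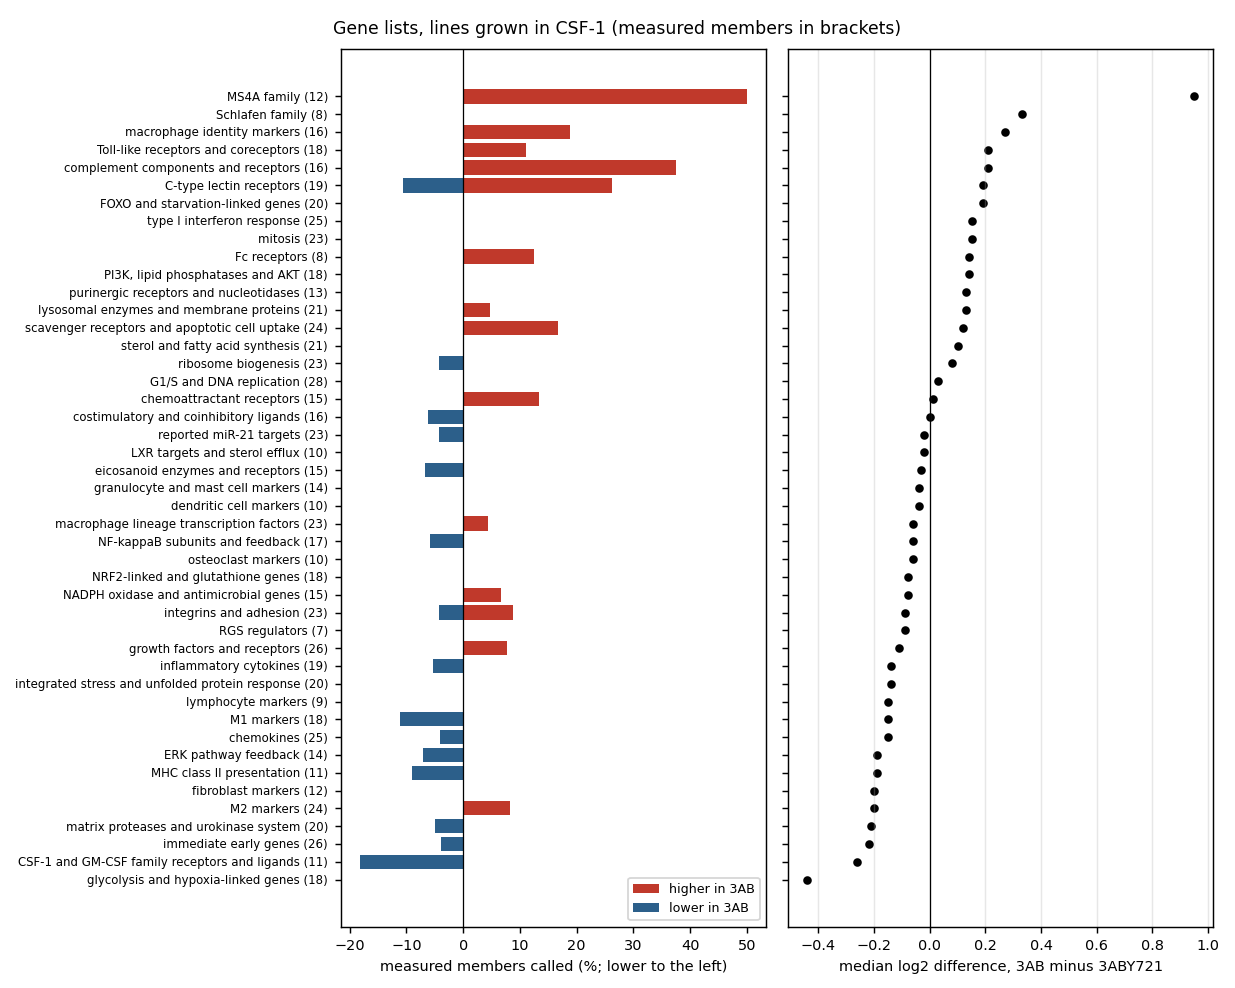
For each of the 45 gene lists the share of measured members called (left; lower in 3AB drawn to the left of 0) and the median log2 difference, 3AB minus 3ABY721 grown in CSF-1 (right), are plotted, ordered by the median. The MS4A family stands at the top with 6 of 12 members called and a median of 0.95, and glycolysis and hypoxia-linked genes at the bottom with a median of -0.44.

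Promoter windows show what the called genes carry near their start. RefSeq windows of GRCm38.p6, 250 bases before to 50 after the annotated start, were found for 15614 tested genes, 81 of the higher and 93 of the lower ones. In all, 6 motifs were searched on both strands. The PU.1 motif GAGGAAGT was in 6.17% of the windows of higher genes (5), 1.08% of those of lower genes (1) and 2.73% of all windows. The core of the interferon-stimulated response element, 2 GAAA words with any 2 bases between them, was in 11.1% (9), 2.15% (2) and 3.32%. The AP-1 motif TGANTCA was in 7.41% (6), 14% (13) and 6.98%. The E-box CACGTG was in 3.7%, 11.8% and 8.38%, the FOXO motif TGTTTAC in 3.7%, 1.08% and 3.02%, and the STAT motif TTCNNNGAA in 3.7%, 7.53% and 7.83%. These shares are descriptions with no test, and a match is not a site of binding. Windows of called genes are shown because they hold the motifs in question, 5′ to 3′ on the gene's strand, with matches to the 6 motifs in capitals. No capital stretch overlaps another motif. C1qc (chr4:136892865-136893164 (minus strand)) and Tlr1 (chr5:64933509-64933808 (minus strand)) hold the PU.1 motif. Aif1 (chr17:35176003-35176302 (minus strand)) holds 1 and Cybb (chrX:9469275-9469574 (minus strand)) 3 matches to the interferon element core, and Cybb also 1 to AP-1. Cd80 (chr16:38458683-38458982 (plus strand)) and Serpinb2 (chr1:107511173-107511472 (plus strand)), both lower in 3AB, hold the AP-1 motif, and Serpinb2 the STAT motif too.
C1qc: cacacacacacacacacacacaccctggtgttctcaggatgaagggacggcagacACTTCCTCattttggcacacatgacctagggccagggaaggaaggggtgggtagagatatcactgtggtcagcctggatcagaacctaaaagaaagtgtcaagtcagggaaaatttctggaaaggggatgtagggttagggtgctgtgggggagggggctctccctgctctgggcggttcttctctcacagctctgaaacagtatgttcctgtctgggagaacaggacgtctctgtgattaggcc
Tlr1: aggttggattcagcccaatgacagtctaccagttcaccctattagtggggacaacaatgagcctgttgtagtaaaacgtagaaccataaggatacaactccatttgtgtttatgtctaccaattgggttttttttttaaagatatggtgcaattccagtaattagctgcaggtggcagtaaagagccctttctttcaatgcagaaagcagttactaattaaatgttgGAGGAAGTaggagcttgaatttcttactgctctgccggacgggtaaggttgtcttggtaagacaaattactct
Aif1: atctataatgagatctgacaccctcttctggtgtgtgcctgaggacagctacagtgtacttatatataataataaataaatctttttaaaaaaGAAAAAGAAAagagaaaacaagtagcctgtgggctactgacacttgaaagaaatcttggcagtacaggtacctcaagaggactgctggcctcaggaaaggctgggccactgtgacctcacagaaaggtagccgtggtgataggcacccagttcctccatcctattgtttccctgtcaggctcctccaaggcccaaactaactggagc
Cybb: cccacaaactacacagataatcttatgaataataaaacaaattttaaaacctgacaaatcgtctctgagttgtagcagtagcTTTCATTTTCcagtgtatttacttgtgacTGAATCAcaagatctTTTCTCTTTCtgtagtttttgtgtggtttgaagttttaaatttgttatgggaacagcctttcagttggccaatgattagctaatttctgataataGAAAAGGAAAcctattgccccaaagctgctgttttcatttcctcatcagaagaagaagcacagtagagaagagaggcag
Cd80: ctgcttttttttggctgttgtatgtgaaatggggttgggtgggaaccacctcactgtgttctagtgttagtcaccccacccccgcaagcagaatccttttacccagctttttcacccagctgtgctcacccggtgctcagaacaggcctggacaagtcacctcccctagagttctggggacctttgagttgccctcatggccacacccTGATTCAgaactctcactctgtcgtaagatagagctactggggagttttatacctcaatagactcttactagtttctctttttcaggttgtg
Serpinb2: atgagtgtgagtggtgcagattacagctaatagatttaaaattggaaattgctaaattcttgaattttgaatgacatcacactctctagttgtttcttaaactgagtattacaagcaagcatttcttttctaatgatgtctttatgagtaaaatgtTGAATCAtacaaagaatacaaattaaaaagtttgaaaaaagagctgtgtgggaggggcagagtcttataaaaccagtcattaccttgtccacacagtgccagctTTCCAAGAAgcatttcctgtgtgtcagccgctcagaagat

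The same lines starved of CSF-1 overnight were compared to see which of the differences recurred there. Starved, 123 genes were called between 3AB and 3ABY721 (0.617%), 49 higher and 74 lower, and leaving out 1 of the 4 starved arrays gave 58 (array I of 3AB), 38 (array II of 3AB), 50 (array I of 3ABY721) or 55 (array II of 3ABY721). Of the 108 genes higher in grown 3AB, 107 had a positive difference when starved, and 38 were called higher there, against 0.246% of all genes. Of the 128 lower genes, 126 had a negative difference and 47 were called lower, against 0.371% of all genes. None was called in the opposite direction. The share of equal signs over all genes was not taken, so the sign counts are a description. The shared 85 genes were 36% of the genes called in grown cells and 69.1% of those called in starved cells. The median difference of the 108 genes was 1.2 grown and 0.81 starved, and that of the 128 genes -1.19 grown and -0.77 starved. The grown cells chose these genes, so a smaller median in the starved cells is not by itself a difference between the states. Over 19938 genes the differences in the states correlated with Pearson r = 0.676 and Spearman rho = 0.524, and genes are not independent replicates.

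Among the largest genes, Ms4a4a read 10.50 in starved 3AB and 7.14 in starved 3ABY721 on average, a difference of 3.36, and Clec1b 9.44 and 6.62, a difference of 2.82 (SE 0.19, adjusted p = 6.25e-06). Cd80 differed by -2.06 grown and -2.11 starved, and Mertk by 1.41 grown and 1.43 starved. For these genes the difference was as large in the starved cells. Others of the largest had a smaller difference there. Ms4a6b differed by 3.47 grown and 1.88 starved, and Ms4a7 by 3.44 and 2.13. Cxcr4 differed by 2.56 grown and 0.97 starved, and Tuba8 by -3.01 and -1.33. None of these passed the test of the difference between the states that follows. The difference of the effects was tested for every gene, and 1 passed (0.00502%), with 440 genes at an unadjusted p under 0.05. It was Tm4sf1, which read 5.84 and 5.53 in starved 3AB against 6.36 and 6.31 in starved 3ABY721. Its effect was -2.26 grown and -0.65 starved, a difference of -1.61 (SE 0.20, adjusted p = 0.0238). By the same limma test it kept its call without array II of starved 3AB. It lost its call without any 1 of the other 7 arrays of these groups: without array II of grown 3ABY721 1 other gene passed, with 341 at an unadjusted p under 0.05, and without each of the other 6 arrays 0 genes passed, with 327 to 529. It also lost its call with all 32 arrays in the fit and with the replicate number as a block, where 0 genes passed. The starved arrays of both lines lay close together, while the grown 3ABY721 arrays stood more than 2 log2 units above the grown 3AB arrays. Dusp4 was similar in pattern, with -2.68 grown and -0.72 starved, but the difference of its effects, -1.96, did not pass (adjusted p = 0.312). With 2 arrays per group, a gene that did not pass is not shown to have equal effects in the states.

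**Figure D4:**
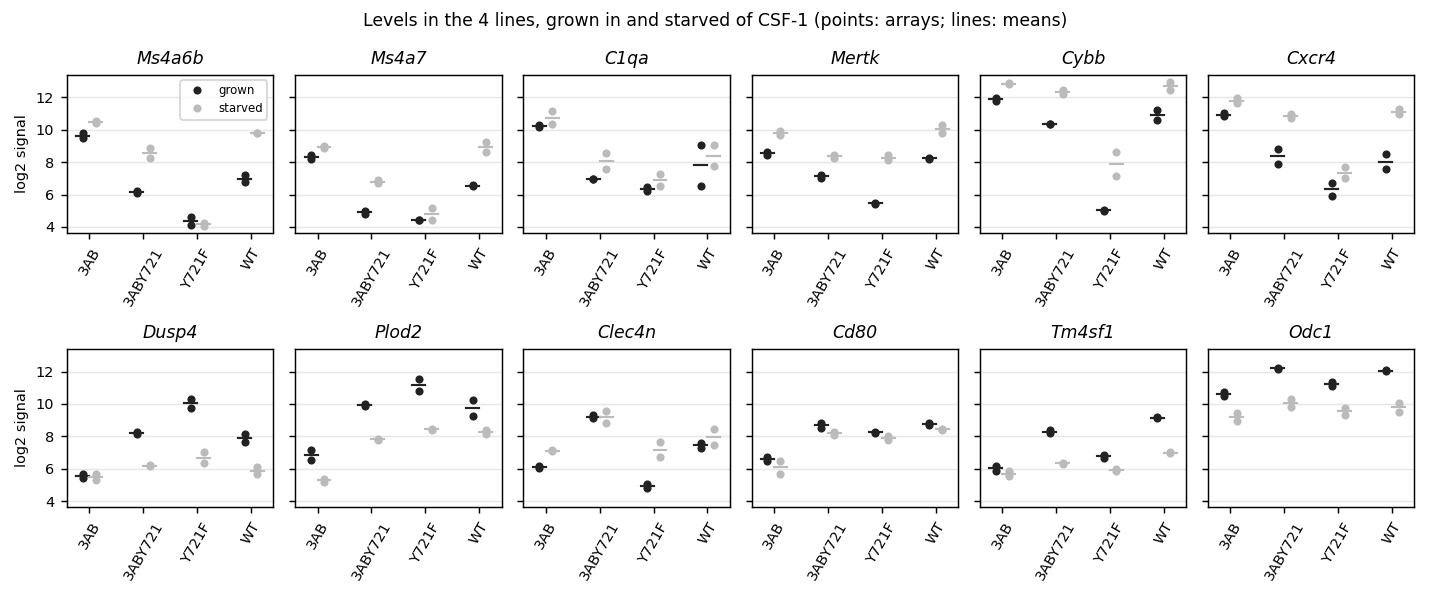
The log2 signal of 12 genes is plotted for the 4 lines, grown in CSF-1 (black) and starved (grey), with 2 arrays (points) and their mean (line) per group. Ms4a6b and Mertk are higher in 3AB than in 3ABY721 in both states and lower in Y721F than in WT when grown, while Tm4sf1 is lower in both grown lines that lack Tyr-721 (5.89 and 6.15 in 3AB, 6.86 and 6.67 in Y721F) than in the grown lines that have it (8.20 and 8.37 in 3ABY721, 9.17 and 9.13 in WT).

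The Y721F and WT lines gave a second comparison of a receptor without Tyr-721 and one with it, in arrays not shared with the first. Grown in CSF-1, 1572 genes were called between Y721F and WT (7.88%), 587 higher in Y721F (2.94%) and 985 lower (4.94%). That count was 2449 without array I of Y721F, 862 without array II of Y721F, 924 without array I of WT and 2269 without array II of WT. Of the 108 genes higher in 3AB, 2 were also called higher in Y721F and 55 were called lower in Y721F. Of the 128 genes lower in 3AB, 19 were also called lower in Y721F and 35 were called higher. The median difference between Y721F and WT was -0.78 for the 108 genes and 0.19 for the 128, against 0.05 for all genes. Over 19938 genes the differences in the pairs correlated with Pearson r = -0.282 and Spearman rho = -0.277. Direct tests found the effect to differ between the pairs for 186 of the 236 genes and for 1593 of all genes (7.99%), 4.85% being more positive in the 3AB pair and 3.14% more negative. The 236 genes were chosen by their 3AB minus 3ABY721 difference, which is part of that contrast, so their 186 is a description. The count over all genes was 864 without array I of 3AB, 845 without array II of 3AB, 901 without array I of 3ABY721 and 900 without array II of 3ABY721. For 162 of the 236 genes the mean of WT lay between those of 3AB and 3ABY721, for 45 above both and for 28 below both. These counts do not cover all 236 genes. The genes were chosen for a gap between 3AB and 3ABY721, which makes a place inside it likely. No share over all genes was taken beside them, so they are a description.

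The 21 genes called in the same direction in both pairs included Trf and Cyp27a1, a sterol hydroxylase, as the 2 higher ones. Trf differed by 2.53 in 3AB against 3ABY721 and by 1.36 (SE 0.39, adjusted p = 0.039) in Y721F against WT. The 19 lower genes included Clec4n, which read 5.04 and 4.8 in Y721F and 7.62 and 7.26 in WT, a difference of -2.52 (SE 0.32, adjusted p = 0.000154), where the 3AB pair had -3.10. Aqp8 measured -2.78 in the 3AB pair and -2.59 in the Y721F pair. Tm4sf1 measured -2.26 in the 3AB pair and -2.39 in the Y721F pair, Cd74 -2.12 and -1.99, and Glipr2, a protein of the Golgi membrane, -1.83 and -2.27. Cxcl3, Ptgs2, Odc1, Clec5a and Cdh1 were also lower in both lines that lack the tyrosine. These falls were of similar size in the pairs for Clec4n, Aqp8, Tm4sf1 and Cd74, where the test of the difference between the pairs gave adjusted p values between 0.464 and 0.916, which does not show them to be equal.

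Genes called in opposite directions in the pairs were 90. Ms4a6b read 4.14 and 4.63 in Y721F against 6.77 and 7.18 in WT, a difference of -2.59 (SE 0.21, adjusted p = 3.15e-06), beside 3.47 in 3AB against 3ABY721. The effects differed by 6.06 (adjusted p = 3.61e-08). Among the grown lines its level was highest in 3AB and lowest in Y721F, the lines that lack the tyrosine. Ms4a6c, Ms4a6d, Ms4a7 and Ms4a4c were likewise higher in 3AB than in 3ABY721 and lower in Y721F than in WT. So were C1qc, Cxcr4, Stab1, Mrc1, Clec7a, Itga4, Tgfbr1 and Ctsh, the gene of the lysosomal protease cathepsin H. The WT arrays of C1qc were far apart, at 10.45 and 7.44, against 6.61 and 6.27 in Y721F. Its difference of -2.50 (SE 0.72) passed at an adjusted p of 0.0391 by limma. C1qa measured -1.47 (SE 0.60, adjusted p = 0.142) between Y721F and WT and was not called. Mertk read 5.43 and 5.48 in Y721F and 8.27 and 8.20 in WT, a difference of -2.78 (SE 0.17, adjusted p = 1.48e-07). Cybb read 4.99 and 5.05 in Y721F and 10.58 and 11.20 in WT, a difference of -5.87 (SE 0.34, adjusted p = 8.57e-08), beside 1.52 in the 3AB pair. In the other direction, Dusp4 read 9.78 and 10.31 in Y721F and 7.66 and 8.14 in WT, a difference of 2.15 (SE 0.24, adjusted p = 4.82e-05) beside -2.68 in the 3AB pair. Plod2 measured 1.43 in Y721F against WT, Tuba8 1.96, Layn 1.85 and Clu 2.66, where all 4 were lower in 3AB. The type I interferon list, with 0 called genes in the 3AB pair, had 17 of 25 lower in Y721F.

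**Figure D5:**
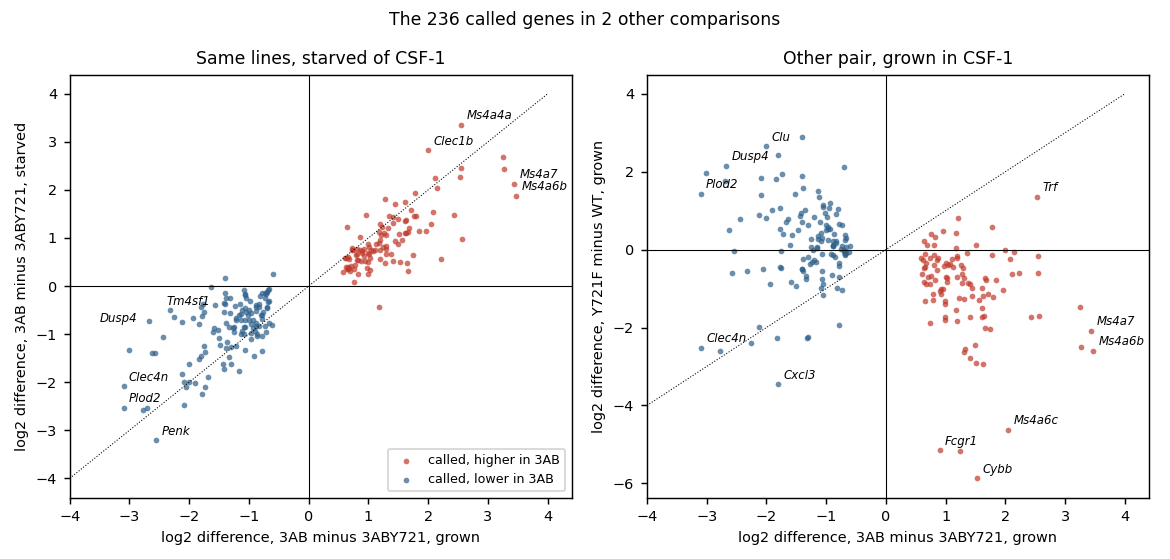
Each point is 1 of the 236 genes called between 3AB and 3ABY721 grown in CSF-1, with that log2 difference on the x axis and on the y axis the difference of the same lines when starved (left) or that of Y721F minus WT when grown (right); the dotted line marks equal values. On the left 107 of 108 higher and 126 of 128 lower genes keep their sign, and on the right 95 of the 108 higher genes lie below 0 and 76 of the 128 lower genes lie above it. No share over all genes was taken beside these sign counts.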

How the data were processed

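The authors deposited a log2 signal for each of 35556 probe sets on 32 arrays. That they are log2 was inferred from their range. How background was corrected and arrays were normalized, and the build, are not stated in the sources used here. Per the series' design text, limma was used with a fold over 1.5 and a p below 0.05 as the cutoff. Probe sets were named through the platform annotation. Of 23410 listed, 21789 name 1 gene and were used, and 1621 that name several were not. A further 12146 are not in that annotation. The RefSeq table matched 21698 of the identifiers and changed 0 symbols. For 999 genes with several probe sets the brightest on average over 32 arrays was taken, leaving 19938 genes.

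The 16 steady-state arrays were fitted with a mean for each of the 8 groups (limma 3.58.1, R 4.3.3), with 8 residual degrees of freedom, a prior of 6.33 and Benjamini-Hochberg adjustment over all genes. SE is the moderated standard error of a difference, from 2 arrays per group. Differences of effects were contrasts of the same fit. Whether equally numbered arrays pair was checked from the correlations of their deviations from the group means.

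The members, the 45 gene lists (741 genes, 696 measured) and the rules were chosen with earlier results of these data known. Named genes are the 15 largest called differences in each direction, up to 4 called members per list, 19 genes given whatever their value, the 5 largest differences of effects in each direction, and up to 5 genes in each direction shared with the Y721F pair. Genes outside the rule are marked as chosen after their values were seen. The method was tested on simulated data. Alternatives were quantile normalization, a signal filter, other sets of arrays, replicate blocks, the mean of probe sets, another prior, leaving out each array and the authors' cutoff.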

Additional observations from a re-analysis of the deposited data

Results flagged for a closer look

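Effects that differed between states or pairs of lines by a test of the difference itself are given here, the 5 largest in each direction where there were that many. Tm4sf1 was the only gene whose 3AB effect differed between the states, with -2.26 grown and -0.65 starved, a difference of -1.61 (SE 0.20, adjusted p = 0.0238 by limma).

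Between the pairs of lines, the effect in the 3AB pair exceeded that in the Y721F pair most for Cybb, the NADPH oxidase subunit, by 7.39 (adjusted p = 4.57e-07, effects 1.52 and -5.87). Next came Ms4a6c by 6.67 (effects 2.05 and -4.62), Mmp8, a neutrophil collagenase, by 6.64 (0.92, not called, and -5.72), Ms4a6d by 6.39 (1.24 and -5.16) and Ms4a6b by 6.06 (3.47 and -2.59). In these genes the grown Y721F line had the lowest mean of the 4 lines.

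In the other direction, the steroidogenic enzyme Cyp11a1 differed by -5.58 (adjusted p = 0.000148), with -0.91 in the 3AB pair, not called, and 4.67 in the Y721F pair. Tuba8 differed by -4.97 (effects -3.01 and 1.96), Dusp4 by -4.82 (-2.68 and 2.15), Scd2, a fatty acid desaturase, by -4.81 (-1.35, not called, and 3.46) and Atp6v0d2, a proton pump subunit of osteoclasts and macrophages, by -4.75 (adjusted p = 0.0137, effects -2.18, not called, and 2.57). Groups of 2 arrays were too small to test for single outlying arrays.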

How the results depend on the processing

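The count of 236 genes in grown cells lay between 186 and 256 under quantile normalization, a filter at the median signal, both replicate blocks, the mean of probe sets and another prior. It was 148 with all 32 arrays in the fit and 474 with only the 4 arrays compared, which kept 221 of the 236. The series text's cutoff on the unadjusted p gave 614, and leaving out 1 array 74 to 92. The fit with 4 arrays gave 191 for the starved lines and 210 for Y721F against WT. The unadjusted cutoff gave 465 for the starved lines, 198 for the difference of grown and starved effects and 3424 for the difference between the pairs. Leaving out 1 array gave 38 to 58 for the starved lines, 862 to 2449 for Y721F against WT, 0 to 1 for the difference of grown and starved effects and 845 to 2280 for the difference between the pairs. The difference of grown and starved effects had 0 genes (1 in the main fit) with all 32 arrays (539 at an unadjusted p under 0.05 by limma) and with the replicate block (434). Of 85 named called genes 28 kept their call under every alternative run and 0 changed sign. Counts of called list members moved when 1 array was left out. Complement, uptake receptors, M2 markers and macrophage identity then had fewer higher genes. So did Toll-like receptors, chemoattractant receptors, integrins and NADPH oxidase genes, while lectins had the same number or fewer. CSF receptors and ligands then had 0 to 1 lower genes, and the MS4A family 6 higher. With all 32 arrays complement had 2, uptake receptors 1, M2 markers 0, lectins 4 and the MS4A family 4 higher genes. With only the 4 arrays fitted, growth factors had 2 higher and 5 lower genes, lectins 6 and 4, and chemoattractant receptors 3 and 2. Uptake receptors had 4 and 2, M2 markers 3 and 2, complement 7 and 1, and the MS4A family 7 and 0. Some lists without a call in the fit with 8 groups then had called genes. FOXO and starvation-linked genes had 2 higher, type I interferon genes 2 higher, and glycolysis and hypoxia genes 1 higher and 2 lower. Why the counts moved was not tested.

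The labels give equally numbered arrays only the same number, and whether they were handled together was not tested. Their deviations correlated between -0.328 and 0.283 in 28 comparisons of groups, 6 of them above 0.1, and at 0.0118 for grown 3AB and 3ABY721. Between the grown and starved arrays of a line the correlation was 0.0423 in 3AB, 0.28 in 3ABY721, 0.12 in Y721F and 0.255 in WT. With the number as a replicate block 256 genes were called in grown cells, 143 in starved cells, 1625 between Y721F and WT and 1610 between the pairs. Crossing the numbers of the starved 3AB arrays, chosen after seeing the data, also gave 143.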

Other observations

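Further called genes, chosen after their values were seen, are given as single genes, with no statement on their families. Car2, a carbonic anhydrase, read 6.20 and 5.93 in 3AB and 7.63 and 8.02 in 3ABY721 (difference -1.76, SE 0.22, adjusted p = 0.000691 by limma), Car4 also fell by 1.76 and the mitochondrial Car5b by 0.90. Cpe, which encodes carboxypeptidase E, read 8.75 and 9.18 in 3AB and 11.08 and 11.02 in 3ABY721, a fall of 2.09. Pcsk1, a prohormone convertase, fell by 1.33, Cavin3 by 1.74 and Ehd2 by 1.78. Car5b, Cpe, Pcsk1 and Cavin3 lost their calls without at least 1 of the 4 arrays. Cpe, Cavin3, Car2 and Car5b were also called lower in starved 3AB.

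Among higher genes, the interleukin-21 receptor Il21r read 7.29 and 7.12 in 3AB and 5.30 and 5.80 in 3ABY721 (difference 1.66, SE 0.20, adjusted p = 0.000453). Gpr65, an acid-sensing receptor, rose by 1.62, Aoah, an enzyme that inactivates lipopolysaccharide, by 1.61, and Selenop, a selenium carrier, by 1.41. All 3 were called lower in Y721F against WT. The decoy receptor Il1r2 fell by 0.89. Gpr65 and Il1r2 lost their calls without at least 1 of the 4 arrays.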
